A study of Mus musculus with 10 samples.

Results

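The Hoxb cluster is a row of 10 homeobox genes on mouse chromosome 11. The repressive histone mark H3K27me3 was mapped over these genes in 5 mouse lymphoma lines. The members, Hoxb1 to Hoxb9 and Hoxb13, were taken by their symbols from the GENCODE annotation of the mm9 genome, and all 10 were found among its 37310 genes. Each gene was given a window from 5 kb upstream of its transcription start site (TSS) to its end, and the bases of that window lying in peaks were counted in each line. The parental line is an Eμ-Myc Cdkn2a-/- B-cell lymphoma of C57BL/6J mice, in which a Myc transgene is driven by the immunoglobulin heavy chain enhancer, active in B cells, and the Cdkn2a tumour suppressor is missing. The R100, R500, R1000 and R4000 lines carry the same alleles and were isolated from it during dose escalation in 100, 500, 1000 and 4000 nM mafosfamide, an alkylating agent related to cyclophosphamide. All 5 lines were grown without the drug for chromatin immunoprecipitation. The question was how H3K27me3 differed between the parental and the resistant lines.

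Hox genes encode transcription factors that set position along the body axis, and in mammals they lie in 4 clusters whose gene order follows the order of expression from head to tail. Polycomb repressive complex 2 places H3K27me3 on Hox genes that are silent, often as broad domains, and the mark is removed where the genes are switched on. Several Hoxb genes are also active in early blood progenitors and are turned down as blood cells mature. Within the cluster Hoxb1 lies at the head end of the gene order and Hoxb13 at the tail end.

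1 peak list was used for each line, with no height, score or read count, so the depth is unknown and a value here is a length of DNA called as enriched, not an amount of the mark. The lists held 10778 peaks (1.632 Mb) in the parental line, 25180 (5.036 Mb) in R100, 21888 (4.533 Mb) in R500, 9595 (1.613 Mb) in R1000 and 6820 (1.074 Mb) in R4000. Relative to the parental line, the covered length of the whole list was therefore 3.09 times as large in R100, 2.78 times in R500, 0.988 times in R1000 and 0.658 times in R4000. A single list per line leaves the replicate error unknown, so the lines are set side by side without a test. Genotype and cell type could not be checked on such lists. The window of Cdkn2a had 0 covered bases in all 5 lines, which does not tell a deleted gene from an unmarked one, and expression of B-cell markers was not analysed here.

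The sequences that carried the main patterns are shown first, as the plus strand of mm9 in lower case with every CpG (the letters CG, which read the same on both strands) in capitals. Only 2 runs in the Hoxb windows lay in peaks of all 5 lines, one in the Hoxb9 intron starting 730 bp after the TSS and one in the Hoxb7 coding sequence 2480 bp after the TSS.

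Hoxb9 intron, chr11:96133501-96133650: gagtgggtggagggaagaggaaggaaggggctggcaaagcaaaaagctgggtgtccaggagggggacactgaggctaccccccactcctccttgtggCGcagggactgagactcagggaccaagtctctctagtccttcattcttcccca
Hoxb7 coding exon, chr11:96148051-96148100: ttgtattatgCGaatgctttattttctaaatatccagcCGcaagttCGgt

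The longest run called in all 4 resistant lines and not in the parental line lay 971 bp before the Hoxb9 TSS, outside any annotated gene.

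Upstream of Hoxb9, chr11:96131551-96131800: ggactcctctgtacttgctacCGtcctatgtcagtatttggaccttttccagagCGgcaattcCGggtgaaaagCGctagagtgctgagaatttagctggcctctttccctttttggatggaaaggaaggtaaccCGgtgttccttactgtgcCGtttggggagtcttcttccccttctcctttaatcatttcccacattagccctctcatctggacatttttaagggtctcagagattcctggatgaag

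Runs called in R100 and R500 alone made up 5000 bp, and one of the longer runs lies inside Hoxb6, where an antisense transcript (0610040B09Rik) is also annotated.

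Within Hoxb6, chr11:96154651-96154950: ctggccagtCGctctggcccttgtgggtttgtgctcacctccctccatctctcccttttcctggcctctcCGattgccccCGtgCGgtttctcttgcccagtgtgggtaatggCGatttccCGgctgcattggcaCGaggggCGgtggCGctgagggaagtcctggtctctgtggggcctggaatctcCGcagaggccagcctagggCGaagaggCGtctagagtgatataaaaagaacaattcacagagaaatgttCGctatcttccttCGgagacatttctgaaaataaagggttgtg

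The 200 bp just before the annotated Hoxb3 TSS lay in no peak of any line, and they are shown for comparison. The same held for the 200 bp before the TSS of Hoxb13, Hoxb9, Hoxb5, Hoxb4 and Hoxb2, so it is not particular to Hoxb3.

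Upstream of Hoxb3, chr11:96184440-96184639: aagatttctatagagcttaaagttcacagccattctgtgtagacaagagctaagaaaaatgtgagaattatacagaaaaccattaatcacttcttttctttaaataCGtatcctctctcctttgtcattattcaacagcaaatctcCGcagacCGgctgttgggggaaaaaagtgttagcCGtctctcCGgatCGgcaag

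Of the runs shared by all 5 lines, that in the Hoxb9 intron held 1 CpG in 150 bp and that in Hoxb7 held 3 in 50 bp. The run of R100 and R500 alone within Hoxb6 held 14 in 300 bp, a density between these. A CpG was present in 96.6% of the 300-bp promoters of 1653 protein-coding genes on chromosome 11, so its presence alone does not set a run apart.

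H3K27me3 peaks covered more of the Hoxb windows in R100 and R500 than in the other lines. The 10 windows overlap in part (those of Hoxb8 and Hoxb7 share 6069 bp) and together span 98998 bp. Peaks covered 3000 bp (3.03%) of these bases in parental cells, 17182 bp (17.4%) for R100, 15100 bp (15.3%) for R500, 5050 bp (5.10%) for R1000 and 3400 bp (3.43%) for R4000. R100 and R500 thus stood at 5.73 and 5.03 times the parental length, and R1000 at 1.68 and R4000 at 1.13 times. The number of peaks was 21 in parental cells, against 60 for R100, 46 for R500, 24 for R1000 and 20 for R4000. Wide peaks, of at least 500 bp, numbered 0 in parental cells, 10 for R100, 11 for R500 and 2 for both R1000 and R4000. The median width was 100 bp in parental cells, R1000 and R4000, 125 bp for R100 and 200 bp for R500. The widest peak of R500 measured 2100 bp, and that of the parental line 350 bp.

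Because the lists differ in total length, the Hoxb bases were also expressed as a share of all covered bases of a line. This share was 0.184% in parental cells, against 0.341% for R100, 0.333% for R500, 0.313% for R1000 and 0.317% for R4000. The 4 resistant lines lay close together and were 1.70 to 1.86 times the parental share. When every list was reduced to its widest peaks until all had the covered length of the shortest list, the ratio to the parental line was 3.45 for R100, 2.15 for R500, 1.98 for R1000 and 1.70 for R4000. For R4000 the direction of the unreduced length depended on the stretch counted. Over the whole stretch from 5 kb before Hoxb13 to the end of Hoxb1, which adds the bases between the windows, R4000 held 4150 bp against 5100 bp in the parental line (0.814 times). The share of its list was still higher there, 0.387% against 0.312%. Over this stretch the share was 1.44 times the parental one for R100, 1.41 for R500, 1.31 for R1000 and 1.24 for R4000. These are smaller than in the windows.

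**Figure D1:**
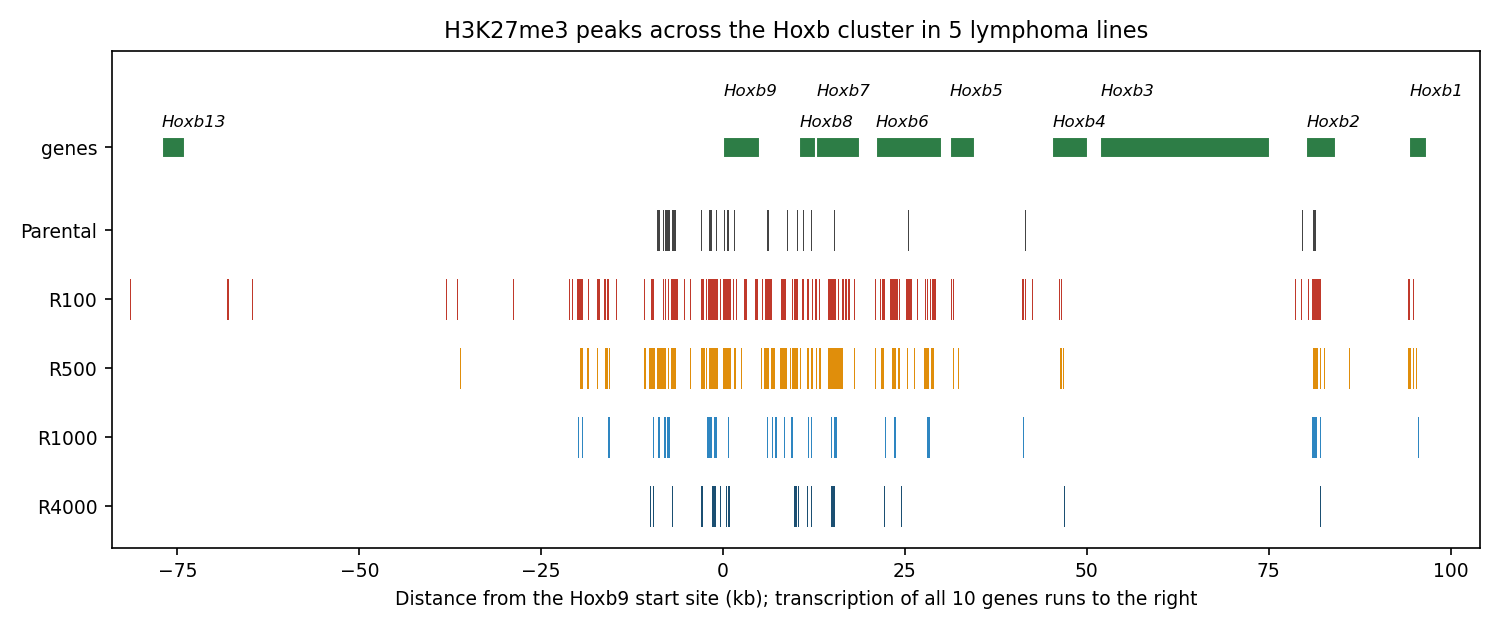
H3K27me3 peaks (coloured bars, one row per line) along the Hoxb cluster, with the 10 genes in green, against distance from the Hoxb9 TSS in kb. Peaks gather from before Hoxb9 to the end of Hoxb6, where R100 and R500 have the most bars, and no row has a bar over Hoxb3.

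The peaks were not spread evenly along the cluster. From 5 kb before Hoxb9 to the end of Hoxb6 (chr11:96127771-96162883, 35113 bp) peaks covered 2300 bp in parental cells, against 14000 bp for R100, 12600 bp for R500, 4050 bp for R1000 and 3050 bp for R4000. This stretch held between 76.7% (parental) and 89.7% (R4000) of the covered Hoxb bases of a line. From the end of Hoxb6 to the end of Hoxb3, which is longer at 45116 bp, peaks covered only 100 bp in parental cells, against 1150 bp for R100, 1000 bp for R500 and 100 bp for both R1000 and R4000. Coverage returned between the end of Hoxb3 and the end of Hoxb1, with 600 bp in parental cells, against 2050 bp for R100, 1750 bp for R500, 900 bp for R1000 and 250 bp for R4000. The longest stretch without a peak in any line ran for 31350 bp (chr11:96179701-96211050), through Hoxb3 and its start sites.

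**Figure D2:**
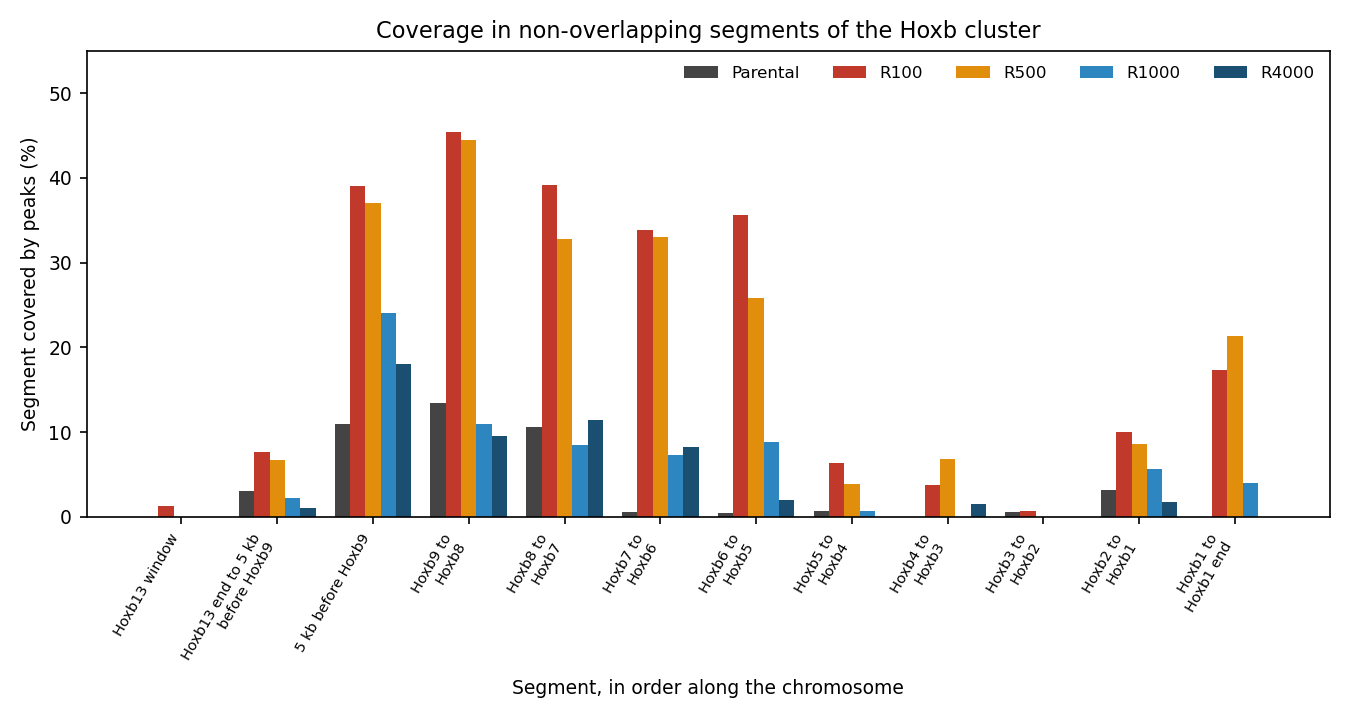
Percentage of each segment covered by peaks, for non-overlapping segments in order along the chromosome, each named by the start sites that bound it, with 1 bar per line. The tallest bars are those of R100 and R500 from Hoxb9 to Hoxb8, at 45.5% and 44.5%, and the segment from Hoxb3 to Hoxb2 stays below 1% in all 5 lines.

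Counted by gene, 8 of the 10 windows held at least 150 bp of peaks in R100 and in R500, against 4 in the parental line, 6 in R1000 and 5 in R4000. Of all genes, 5.82% did so in parental cells, against 15.8% for R100, 12.7% for R500, 6.63% for R1000 and 5.39% for R4000. The median window held 75 bp in parental cells, against 1400 bp for R100, 1275 bp for R500, 625 bp for R1000 and 125 bp for R4000, and the median over all genes was 0 bp in every line. In the 5 kb upstream alone, 4 of 10 Hoxb genes reached 150 bp in the parental line, where 3.04% of all genes did. The numbers were 7 of 10 in R100 (7.48% of all genes), 6 of 10 in R500 (6.69%), 4 of 10 in R1000 (3.32%) and 3 of 10 in R4000 (2.46%). The order of the lines depended on how the lists were shortened. With an equal number of widest peaks the upstream count was 6 in R100 and 5 in R500. It was 4 in the parental line and R1000 and 3 in R4000. With lists of equal covered length it was 2 in both R100 and R500, below the 4 of the parental line. R1000 then had 4 and R4000 had 3. That shortening kept 3308 parental peaks but only 746 of R100 and 773 of R500. The shares of all genes given here belong to the full lists. Compared with the parental line, 9 genes had more covered bases both in R100 and in R500, 7 did so in R1000 and 5 in R4000. Of all genes, 23.9% had more covered bases for R100, 19.0% for R500, 8.69% for R1000 and 6.44% for R4000. Hoxb genes with fewer covered bases numbered 0 in R100 (1.92% of all genes), 0 in R500 (2.05%) and 0 in R1000 (5.55%), and R4000 had 2, Hoxb8 and Hoxb2 (7.12%).

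A gene was called gained where its window held at least 150 bp and at least 2 times the parental length, and lost by the same rule in reverse. By this rule 8 of 10 Hoxb genes were gained in R100, where 13.9% of all 37310 genes were gained and 0.461% lost. In R500 7 were gained (10.6% of all genes gained, 0.466% lost), and the eighth gene of R100, Hoxb2, stood at 1.75 times. R1000 had 3 gained genes, Hoxb7, Hoxb6 and Hoxb5 (2.9% of all genes gained, 1.78% lost). The 450 bp of Hoxb5 in R1000 lie in the Hoxb6 window as well, so the calls of Hoxb6 and Hoxb5 share bases. R4000 had 2 gained, Hoxb7 and Hoxb6 (2.06% of all genes), and 1 lost, Hoxb2 (3.0%). No Hoxb gene was lost in R100, R500 or R1000. The calls compare single lists, and in lists of equal covered length 4 genes were gained in R100, while in R500 3 were gained and 2, Hoxb8 and Hoxb2, were lost. The shares of all genes belong to the full lists, so these last counts have no share beside them.

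**Figure D3:**
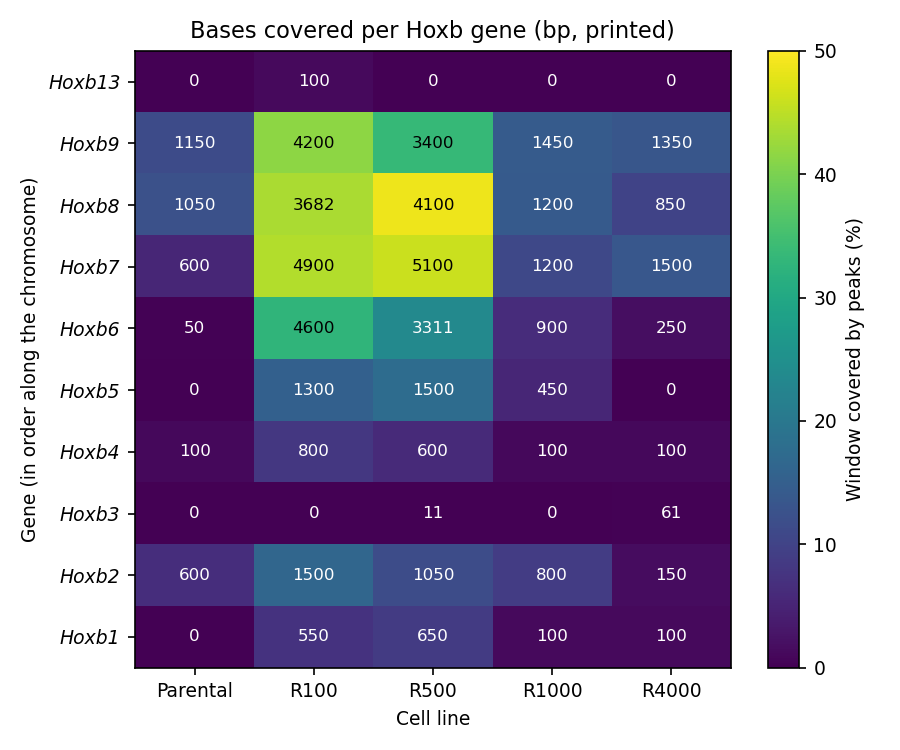
Covered bases per gene window (numbers in the cells, bp) for the 10 Hoxb genes in chromosome order and the 5 lines, with the colour showing the percentage of the window covered. The bright block lies at Hoxb9 to Hoxb6 in R100 and R500, and the rows of Hoxb13 and Hoxb3 are dark in every line.

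Of the 3 stretches compared above, that with Hoxb9, Hoxb8, Hoxb7 and Hoxb6 had the largest share of its bases covered in each of the 5 lines. Hoxb9, which helps to pattern the thoracic skeleton, had 1150 bp covered in the parental line, 4200 bp for R100, 3400 bp for R500, 1450 bp for R1000 and 1350 bp for R4000. Upstream of its TSS alone all 4 resistant lines were above the parental line, with 550 bp in parental cells, against 1950 bp for R100, 1850 bp for R500, 1200 bp for R1000 and 900 bp for R4000. In its body R1000 (250 bp) and R4000 (450 bp) were below the parental line (600 bp), while R100 (2250 bp) and R500 (1550 bp) were above it. The upstream bases lay mainly in 1 region joined from the peaks of all lines (chr11:96130551-96132050). Peaks covered 500 bp of it in parental cells, against 1300 bp for R100, 1200 bp for R500, 1150 bp for R1000 and 500 bp for R4000. The equal lengths of the parental line and R4000 were not the same bases, and no base of the region was called in all 5 lines.

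Hoxb8, whose forced expression keeps myeloid progenitors from maturing, had 1050 bp covered in the parental line, 3682 bp for R100, 4100 bp for R500, 1200 bp for R1000 and 850 bp for R4000. It was the gene with the largest share of its window covered in the parental line, at 12.5%, and reached 48.7% in R500, the highest value of any Hoxb gene in any line. R4000 was below the parental line over the window as a whole, at 0.81 times, but had 750 bp within 2 kb of the TSS against 550 bp in the parental line.

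Hoxb7, linked to cell proliferation when it is overexpressed, had 600 bp covered in the parental line, 4900 bp for R100, 5100 bp for R500, 1200 bp for R1000 and 1500 bp for R4000. It was gained in every resistant line, at 8.17 times the parental length in R100, 8.5 times in R500, 2 times in R1000 and 2.5 times in R4000. Its window overlaps those of Hoxb8 and Hoxb6, and its body also shares bases with both of these windows, so the values of these 3 genes are not independent. The Hoxb7 body overlaps the Hoxb8 gene but ends before the Hoxb6 gene starts. The body alone held 50 bp in parental cells, against 2680 bp for R100, 2630 bp for R500, 600 bp for R1000 and 680 bp for R4000. These bases came mostly from 1 region over an exon and the DNA after it (chr11:96147151-96149350), where the parental line had a single 50-bp bin and R500 its widest peak of the cluster, 2100 bp. Without the Hoxb7 window R4000 fell below the parental line over the rest of the cluster, at 0.949 times.

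Hoxb6, which in marrow cells can drive the expansion of myeloid precursors, had 50 bp covered in the parental line, 4600 bp for R100, 3311 bp for R500, 900 bp for R1000 and 250 bp for R4000. The parental value is 1 bin, so no ratio is read from it. The bases lay in the gene body more than upstream, with 3600 bp of body in R100 and 2611 bp in R500. The body is shared with the antisense transcript 0610040B09Rik, and a peak cannot be assigned to either strand. Hoxb5, which patterns the shoulder and the enteric nervous system and marks blood stem cells, was uncovered in parental cells and in R4000, with 1300 bp for R100, 1500 bp for R500 and 450 bp for R1000. The single R1000 peak of Hoxb5 lay 2659 bp before its TSS, inside the annotated body of Hoxb6.

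Hoxb4, Hoxb3 and Hoxb13 each had at most 800 bp covered in any line. Hoxb4, known for expanding blood stem cells when it is overexpressed, had 100 bp in parental cells, against 800 bp for R100, 600 bp for R500 and 100 bp for both R1000 and R4000. The R4000 bases lay 1603 bp after the TSS and those of the parental line and R1000 lay more than 3 kb before it, so the equal lengths were not the same bases. Hoxb3, the longest gene with a window of 28360 bp, had 11 bp in R500 and 61 bp in R4000 at the far upstream edge of its window, within Hoxb4, and 0 bp in the parental line, R100 and R1000. Hoxb13, which lies apart from the others and acts in the tail and the prostate, had 100 bp in R100, 4230 bp before its TSS, and 0 bp in the other lines.

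At the head end of the cluster, Hoxb2, a hindbrain patterning gene, had 600 bp covered in the parental line, 1500 bp for R100, 1050 bp for R500, 800 bp for R1000 and 150 bp for R4000. Its peaks lay mainly in the gene body, in 1 region starting 805 bp after the TSS (chr11:96213751-96215000), joined from the peaks of all lines. No base of this region was called in all 5 lines, and the R4000 bases there were not called in the parental line. Upstream bases were called only in the parental line (150 bp) and R100 (200 bp). R4000 stood at 0.25 times the parental length, the only loss by the rule among the 10 genes. Hoxb1, another hindbrain gene, was uncovered in parental cells, with 550 bp for R100, 650 bp for R500 and 100 bp for both R1000 and R4000. In R100 and R500 its peaks reached the TSS itself, where the R1000 peak lay 1235 bp after and the R4000 peak 2316 bp before it.

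2 microRNA genes of the cluster were checked with the coding genes, and their mature sequences from RefSeq are given with the seed (bases 2 to 8) in capitals.

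miR-10a-5p: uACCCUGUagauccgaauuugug
miR-196a-5p: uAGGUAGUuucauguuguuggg

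The miR-10a hairpin lies within the annotated Hoxb4 gene and was in no peak of any line, while that of miR-196a, upstream of Hoxb9, was covered for 73 bp in R100 and for 0 bp in the other lines. Within 2 kb of the miR-196a hairpin peaks covered 1523 bp in parental cells, against 1750 bp for R100, 1423 bp for R500, 650 bp for R1000 and 300 bp for R4000. There the parental line was near R100 and R500 and above R1000 and R4000, unlike in the windows of Hoxb7, Hoxb6 and Hoxb5.

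The bases called in the lines were next compared bin by bin, over 1976 bins of 50 bp. Of these, 1513 were in no peak, 215 in peaks of a single line and 4 in peaks of all 5 lines. R100 and R500 shared 49.2% of the bases that either of them covered, against 34.4% over their whole lists. The parental line and R4000 shared 5.79%, against 17.6% over their whole lists, although they covered similar lengths of the cluster. Of the 60 parental bins, R100 and R500 each held 48 (80.0%), R1000 28 (46.7%) and R4000 7 (11.7%), where over the whole lists the shares were 54.4%, 57.4%, 34.9% and 24.8%. Of the 68 bins of R4000, 89.7% were not parental, against 62.3% over its whole list.

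R100 covered 82.4% of the R4000 bases in the windows, and so did R500, against 70.8% and 70.9% over the whole R4000 list. R1000 covered 29.4% of them, against 45.3% over the whole list. A total of 171 bins were called in both R100 and R500 and not in the parental line. Of these, 39 (22.8%) were also in R1000, 46 (26.9%) in R4000 and 100 (58.5%) in neither. The 5 lines were not sequenced to a known depth, and how much of this pattern follows the number of peaks in a list was not tested.

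Covered bases were richer in CpG than the rest of the windows. They held 3.83 CpG per 100 bp in parental cells, against 4.11 for R100, 4.48 for R500, 4.02 for R1000 and 4.29 for R4000, against 2.27 in bases that no line covered. Within 2 kb of the TSS, CpG was densest at Hoxb9, with 5.2 per 100 bp, and sparsest at Hoxb3, with 1.13, which are also a well covered and an almost uncovered gene. Hoxb6, however, was the next sparsest at 2.20, and had 4600 bp of its window covered in R100, of which 690 bp lay within 2 kb of the TSS. Hoxb13 and Hoxb1 were close to each other in CpG (2.57 and 2.52) but had 100 and 550 bp covered in R100. Exons made up 14.1% of the covered bases in the parental line, a value that rests on 422 bp. They made up 35.0% for R100, 36.5% for R500, 26.4% for R1000 and 39.7% for R4000. For comparison, exons were 30329 of the 98998 bp of the windows. Peaks covered 4.40% of exon bases in R1000 and 4.45% in R4000, against 8.04% and 5.66% of bases between genes. In R100 these were 19.8% and 18.6%, and in R500 18.2% and 18.5%.

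Compared with the other Hox clusters, the Hoxb windows were less covered than those of Hoxa and Hoxc and more than those of Hoxd in all 5 lines. In the parental line peaks covered 29.7% of the Hoxa windows, 14.3% of the Hoxc windows and 1.09% of the Hoxd windows, with 3.03% for Hoxb. The ratio of R100 to the parental line was 1.44 for Hoxa, 2.58 for Hoxc, 5.73 for Hoxb and 8.73 for Hoxd. These ratios run opposite to parental coverage, but parental coverage is also their divisor, so nothing is concluded from their order. As a percentage of the windows, R100 covered 42.8% of Hoxa, 36.9% of Hoxc, 17.4% of Hoxb and 9.48% of Hoxd. The clusters thus kept their parental order. In R4000 the ratio was 0.733 for Hoxa, 0.672 for Hoxc, 0.40 for Hoxd and 1.13 for Hoxb, which was the only cluster above 1, and below 1 over the whole stretch given above. No difference between clusters was tested.

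**Figure D4:**
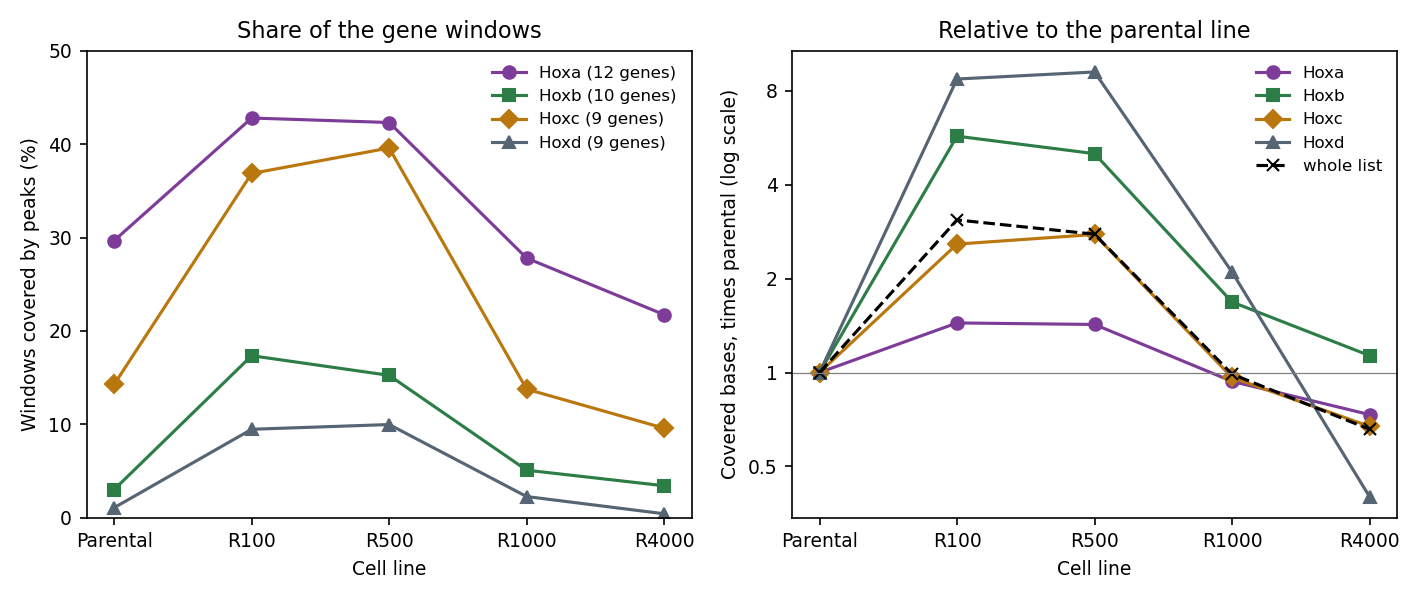
Left, percentage of the gene windows covered by peaks in the 4 Hox clusters, for the 5 lines. Right, covered bases relative to the parental line on a log scale, with the whole list as a dashed line. The lines join separate cell lines for reading only. Hoxb lies between Hoxc and Hoxd on the left and above the dashed line in all 4 resistant lines on the right.

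Of the 9 Hox cofactor genes, which encode homeodomain partners that bind DNA with Hox proteins, R100 and R500 each gained 3 by the same rule, R1000 gained 0 and lost 1, and R4000 gained 1 and lost 1. Of all genes, 13.9% were gained for R100, 10.6% for R500, 2.9% for R1000 and 2.06% for R4000, and 1.78% were lost in R1000 and 3.0% in R4000. Of protein-coding genes alone, 19.1% were gained for R100, 14.3% for R500, 3.83% for R1000 and 2.63% for R4000. In R1000 2.34% of these were lost, and in R4000 4.11%. Meis2 had 250 bp in parental cells, against 1850 bp for R100, 1150 bp for R500 and 0 bp for both R1000 and R4000. Of the 12 genes that act upstream of Hox genes, the Cdx factors and the makers, receptors and degraders of retinoic acid, R100 gained 5, R500 gained 4, R1000 gained 1 and R4000 gained 0 and lost 1, beside the same shares of all genes. Rarg, a retinoic acid receptor, had 300 bp in parental cells, against 3450 bp for R100, 3350 bp for R500, 1800 bp for R1000 and 400 bp for R4000. Cyp26a1, which degrades retinoic acid, had 0 bp in parental cells, against 1750 bp for R100, 1700 bp for R500, 100 bp for R1000 and 0 bp for R4000.

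The genes outside the Hox clusters whose covered percentages were nearest to the Hoxb medians over the 5 lines were Phox2a, Wnt11, Nr2e1, Mmp9 and Nlrp6. The Hoxb medians were 0.68% in parental cells, against 15.9% for R100, 14.6% for R500, 5.83% for R1000 and 1.49% for R4000. Phox2a, the closest, had 0.507%, 17.3%, 13.2%, 5.07% and 0.507% in the same order. The likeness is a description over 5 lists.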

How the data were processed

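H3K27me3 ChIP-seq was analysed in 5 lines, and the RRBS samples were not analysed here. The authors immunoprecipitated chromatin with an antibody to H3K27me3, read 50 bp of each fragment and called peaks from Poisson statistics on tiled windows, with input libraries as the control. Bowtie and mm9 are named in the submitters' processing notes. The deposited values are peak positions in base pairs, 1 list per line with chromosome, start and end, and no count or score. The threshold of the lists and the pooling of replicates are not given in the sources used here. Depth is unknown, which limits every comparison of peak length between lines.

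Peak positions were within the chromosome lengths of NCBIM37 (mm9). Every peak is written 2 times in the lists of R100 and R500 and was counted once. Genes were those of the GENCODE annotation of NCBIM37, with the 5′ end of the gene as TSS. Covered bases came from scripts in Python 3.11.15 (numpy 2.4.6, pandas 2.3.3), after the overlap steps were tested on simulated data (0 of 1400 values wrong). Figures were drawn with matplotlib 3.10.9. Sequences were read from mm9, and microRNAs were matched to RefSeq by name.

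The members, lists and rules were chosen with earlier results of these data known. The genes named are the 10 members, members of the fixed lists of cofactors and regulators, and the 5 protein-coding genes nearest to the Hoxb medians. Samples were grouped by their titles. The alternatives were peaks of at least 500 bp, lists of equal number or equal covered length, peaks within 1000 bp joined, other windows and minimums, a fold of 1.5, each gene left out in turn and, chosen after seeing the data, the whole stretch of the cluster. Some items of these lists and regions are not reported here.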

Additional observations from a re-analysis of the deposited data

Results flagged for a closer look

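In 3 places the resistant lines moved in opposite directions from the parental line, R100, R500 and R1000 having more covered bases and R4000 fewer. These differences were not tested, since there is 1 list per line. Over the whole stretch from 5 kb before Hoxb13 to the end of Hoxb1, peaks covered 5100 bp in parental cells, against 22600 bp for R100, 20000 bp for R500, 6600 bp for R1000 and 4150 bp for R4000. In the window of Hoxb8 the values were 1050 bp, 3682 bp, 4100 bp, 1200 bp and 850 bp in the same order. In the window of Hoxb2 they were 600 bp, 1500 bp, 1050 bp, 800 bp and 150 bp. The whole list of R4000 also covered less of the genome than the parental list, 1.074 Mb against 1.632 Mb, and the part of list length in these values was not tested.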

How the results depend on the processing

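Depth limits all values, since a shallower library gives fewer and narrower peaks and the depths are unknown. No paired analysis was possible because there is 1 list per line. Of 128 recomputed values, 112 kept their direction and stayed within 1.5 times of the value reported. The covered length of R4000 relative to the parental line (1.13 times) turned to 0.922 with peaks within 1000 bp joined, to 0.949 without the Hoxb7 window and to 0.814 over the whole stretch of the cluster. Leaving out each gene in turn gave 4.89 to 7.02 for R100, 4.56 to 6.32 for R500, 1.54 to 1.95 for R1000 and 0.949 to 1.36 for R4000. With lists of equal covered length the ratio was 3.45 in R100 and 2.15 in R500, 2 genes each were covered upstream in R100 and R500 against 4 in the parental line, 4 were gained in R100 and 3 in R500, and 2 (Hoxb8 and Hoxb2) were lost in R500, and the cause was not tested. With peaks of at least 500 bp, the genes covered upstream numbered 0 in parental cells, 4 for R100 and 1 each for R1000 and R4000, 0 were lost in R4000, and no ratio could be computed because the parental line had 0 bp. With a minimum of 1 bp, 6 genes were covered upstream in R4000.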

Other observations

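The DNA beside the Hoxb genes held peaks in every line as well. Between the end of Ttll6 and 5 kb before Hoxb13 (chr11:96026766-96050629), which holds the transcript Gm11535, peaks covered 4200 bp in parental cells, against 6935 bp for R100, 7050 bp for R500, 2700 bp for R1000 and 3035 bp for R4000. These 23864 bp thus held more peak length in the parental line than all 10 Hoxb windows together (3000 bp). From the start of Gm53 to 5 kb before Hoxb9 the lengths were 2100 bp, 4400 bp, 4550 bp, 1500 bp and 750 bp in the same order. In both stretches R1000 and R4000 lay below the parental line, while R100 and R500 lay above it. Between the end of Hoxb1 and the start of Skap1, 96336 bp, no line had more than 1000 bp.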
